A study of Mus musculus with 4 samples.

Results

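The thymus is built on 2 epithelial cell populations, and the mTEC over cTEC contrast was read here in mice lacking SCD1, an enzyme that desaturates stearate to oleate. A single library from medullary cells (mTEC) of Scd1 knockout mice was set against a single library from cortical cells (cTEC) of the same genotype, and the genes described are the 15962 of 54532 gene identifiers with 50 or more reads summed over these 2 libraries. Of these, 14544 are annotated as protein coding. The series measured RNA by bulk sequencing in 4 libraries of sorted thymic epithelial cells from mice on the C57BL/6 background. They are mTEC (sorted as Ly51- UEA1+) and cTEC (sorted as Ly51+ UEA1-) from knockouts, and the same populations from littermates labelled WT, which are called controls below. The sources used here do not give age, sex, how many mice stand behind a library, or which part of Scd1 was removed and in which cells. The control pair was read by the same rule, and 15509 genes had 50 or more reads in both pairs, so that each compartment difference could be described as held or lost without SCD1.

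Cortical thymic epithelial cells receive incoming T cell precursors, drive their expansion through Notch ligands, chemokines and cytokines, and select them on peptides made by a cortex-specific proteasome and by cortex-specific proteases. Medullary thymic epithelial cells mature under RANK and CD40 signals through the NF-kB pathway. Under the control of AIRE and FEZF2 they express genes of other tissues, which exposes developing T cells to self antigens, and subsets of them, called mimetic cells, take on the programme of a peripheral cell type such as muscle, keratinocyte, tuft or microfold cell. SCD1 introduces a double bond into saturated fatty acids, and its activity sets the balance of saturated and monounsaturated lipids in membranes and stores.

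Each group held 1 library, so no difference has a replicate check, no p-value was computed, and every statement compares these libraries and not the conditions. Intervals are exact or normal 95% intervals that cover counting error only. In bulk RNA, fewer cells of a type and less RNA per cell cannot be told apart. Between 15740383 and 18151725 reads were assigned to genes in each library, and the number of genes reaching 10 reads was 19654 in mTEC and 17040 in cTEC of the knockouts, and 19539 and 16839 in the controls. Levels are given as CPM, reads scaled to the TMM library size so that libraries can be compared, and not per gene length. Scd1 itself was present at 15.8 CPM in knockout mTEC and 4.16 CPM in knockout cTEC, against 76.9 and 21.3 CPM in the control libraries. Its log2 ratio of knockout over control was -2.28 in mTEC and -2.34 in cTEC. In each population the knockout library thus lay below the control library, and reads on the gene did not disappear. The remaining Scd1 reads were still higher in mTEC, with a log2 ratio of 1.92 (95% interval 1.55 to 2.32) in the knockout pair and 1.85 in the control pair. Scd2, a desaturase of the same family, was present at 378 CPM in knockout mTEC and 497 CPM in knockout cTEC, against 353 and 443 CPM in the control libraries, and its ratio stayed under 2-fold in both pairs. Scd3 had 81 reads in knockout mTEC, 3 in knockout cTEC, 43 in control mTEC and 5 in control cTEC, a log2 ratio of 4.54 (95% interval 3.15 to 7.06) in the knockout pair, while Scd4 had 35 and 14 reads there and fell below the minimum.

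The labelled populations were checked against their defining genes. Enpep, which encodes the Ly51 antigen used in the sort, was present at 24.3 CPM in knockout mTEC and 219.7 CPM in knockout cTEC, against 22.9 and 185 CPM in the control libraries. Fut1 and Fut2 encode fucosyltransferases that build the glycans bound by the lectin UEA1, and their log2 ratios were 3.31 (95% interval 2.96 to 3.70) and 2.58 (95% interval 2.09 to 3.14). Epcam, a general epithelial marker, was higher in mTEC by less than 2-fold (0.86 on the log2 scale), and Ptprc, which marks blood cells, had 433 and 626 reads. Enpep and the fucosyltransferases went with the labels in both genotypes.

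Upstream sequence is shown for a pair of defining genes from each population, chosen among marker genes whose RefSeq start site coincides with the start of the deposited gene model. The windows are the 250 bases before the start site in RefSeq's GRCm38.p6 table, written 5′ to 3′ along the gene's strand. Capitals mark GACGC, the core of the sites bound by FOXN1, the master factor of thymic epithelium, or the general form of NF-kB sites, GGG and CC with any 5 bases between them. Both strands were searched, and matches can overlap. 
Ccl25: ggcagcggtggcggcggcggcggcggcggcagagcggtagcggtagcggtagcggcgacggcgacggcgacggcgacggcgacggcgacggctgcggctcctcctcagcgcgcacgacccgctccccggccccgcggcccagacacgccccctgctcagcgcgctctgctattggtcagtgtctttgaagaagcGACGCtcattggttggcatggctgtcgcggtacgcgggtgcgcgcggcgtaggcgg
Cxcl12: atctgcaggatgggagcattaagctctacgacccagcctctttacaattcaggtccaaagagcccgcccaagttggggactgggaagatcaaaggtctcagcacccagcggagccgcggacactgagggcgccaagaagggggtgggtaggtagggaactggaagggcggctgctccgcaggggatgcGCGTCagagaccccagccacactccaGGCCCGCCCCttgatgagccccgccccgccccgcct
Aire: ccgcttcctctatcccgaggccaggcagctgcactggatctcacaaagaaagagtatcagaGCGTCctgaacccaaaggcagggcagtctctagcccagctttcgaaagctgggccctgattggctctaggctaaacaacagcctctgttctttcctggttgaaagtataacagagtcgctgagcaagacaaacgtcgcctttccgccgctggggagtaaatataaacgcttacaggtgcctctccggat
Spib: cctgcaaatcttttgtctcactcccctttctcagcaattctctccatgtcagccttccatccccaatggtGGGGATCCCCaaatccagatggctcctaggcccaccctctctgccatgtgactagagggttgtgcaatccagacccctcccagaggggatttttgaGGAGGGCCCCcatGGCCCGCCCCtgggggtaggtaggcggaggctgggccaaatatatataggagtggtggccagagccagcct
The Ccl25 window lies at chr8:4324960-4325209 on the plus strand, that of Cxcl12 at chr6:117168285-117168534 on the plus strand, that of Aire at chr10:78043611-78043860 on the minus strand, and that of Spib at chr7:44532072-44532321 on the minus strand. GACGC was found once in the windows of Ccl25, Cxcl12 and Aire, and the NF-kB letters once in that of Cxcl12 and 3 times in that of Spib. The start sites of Dll4, Cldn3 and Cldn4 coincide with the deposited models too, and their windows are not shown. None of these windows held GACGC, and the NF-kB letters were found once in that of Dll4 and not in those of Cldn3 and Cldn4. Across the 11779 genes with 50 or more reads that could be matched to a RefSeq window, GACGC was present in 36.2% of windows. The share was 35.5% of 1008 windows of genes higher in knockout cTEC, 22.3% of 2280 windows of genes higher in knockout mTEC and 40.0% of 8491 windows of genes called in neither direction. The NF-kB letters were present in 60.9% of all windows, 60.1% of the cTEC-high and 56.8% of the mTEC-high. Median GC content was 59.2% over all windows, 59.2% in the cTEC-high and 56% in the mTEC-high set, and its part in these shares was not tested. A match of letters is a description and not a bound site.

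Between the knockout libraries, 3162 genes were higher in mTEC, which is 19.8% of the genes measured, and 1430 were higher in cTEC, which is 8.96%. A gene was called when its log2 ratio of scaled counts was at least 1 in size (2-fold) and its 95% interval excluded 0, and called genes are named mTEC-high or cTEC-high below. In the control pair 2990 of 15747 genes (19%) were mTEC-high and 1343 (8.53%) were cTEC-high. More genes were mTEC-high, and they were farther apart. The median fold was 5.30 among knockout mTEC-high genes and 2.61 among cTEC-high genes, and 947 mTEC-high genes were more than 10-fold apart against 34 cTEC-high genes. In knockout cTEC, 94 genes with 50 or more reads in knockout mTEC had no read at all, while no gene with 50 or more reads in knockout cTEC was without reads in knockout mTEC. In the control pair the same counts were 87 and 1. Depth differed between the sides: the median mTEC-high gene had 186 reads over the knockout pair and the median cTEC-high gene 588.5, and 790 mTEC-high genes had fewer than 10 reads in knockout cTEC.

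Most compartment differences of the control pair were held without SCD1. Of 2866 control mTEC-high genes with enough reads in both pairs, 2637 (92.0%) were mTEC-high in the knockout pair too, and of 1316 control cTEC-high genes 1039 (79.0%) were cTEC-high there. The held genes made up 83.4% of the knockout mTEC-high list and 88.2% of the control list, and 72.7% and 77.4% for the cTEC-high lists. The 2 comparisons share no library. Across the 15509 genes the log2 ratios of the pairs had a Pearson r of 0.942 and a Spearman rho of 0.917, a description over genes that are not independent and whose ratios share a wide range of true levels. The median difference of the ratios was -0.0027, and 94.8% of genes differed by less than 2-fold between the pairs. A further 184 mTEC-high and 232 cTEC-high genes were called in the control pair only, without a 2-fold difference between the pairs whose interval excluded 0. All of them had the same sign in the knockout pair, with median log2 ratios of 0.81 and -0.86, just short of the threshold. Likewise 246 mTEC-high and 294 cTEC-high genes were called in the knockout pair only. The difference itself was 2-fold or more, with an interval that excluded 0, for 495 genes, of which 318 shifted toward mTEC and 177 toward cTEC in the knockout. Among held mTEC-high genes the ratio was at least 2-fold wider in 136 and at least 2-fold narrower in 53, and among held cTEC-high genes in 12 and 14.

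**Figure D1:**
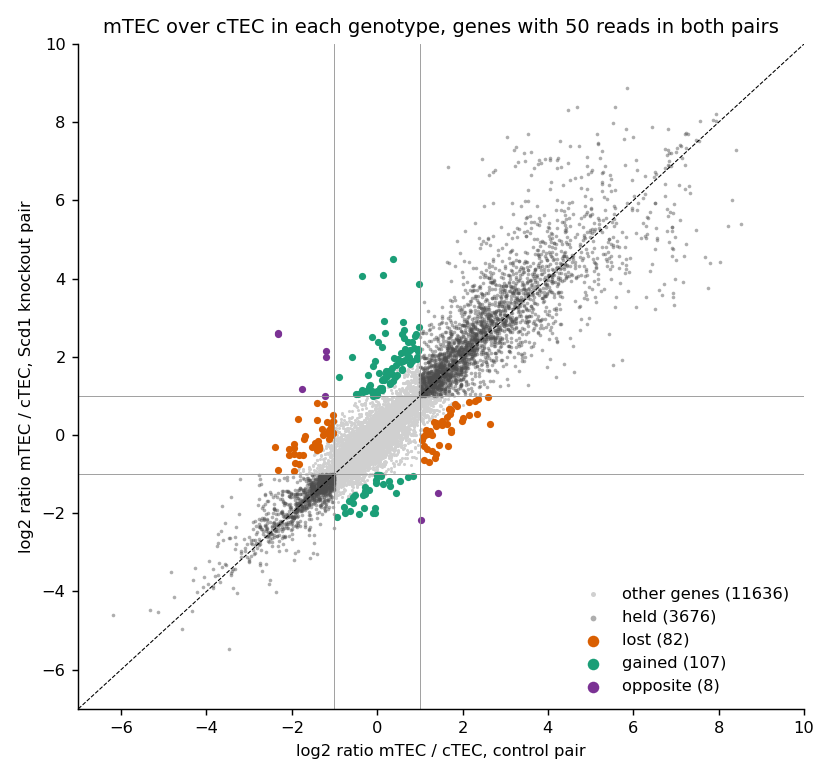
Log2 ratio of mTEC over cTEC in the control pair (horizontal axis) and in the Scd1 knockout pair (vertical axis) for the 15509 genes with 50 or more reads in both pairs; grey lines mark 2-fold and the dashed line marks equal ratios. The 3676 held genes lie along the dashed line in the upper right and lower left, and the 82 lost, 107 gained and 8 opposite genes lie off it.

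The cTEC markers kept their compartment difference in the knockouts. Of 12 cTEC markers, 11 were cTEC-high in the knockout pair and the same 11 in the control pair, with a median log2 ratio of -2.74 against -2.70. Prss16, a thymus-specific serine protease that shapes the peptides for CD4 T cell selection, was present at 509 CPM in knockout mTEC and 7095 CPM in knockout cTEC, against 363 and 5639 CPM in the control libraries, and its log2 ratio was -3.80 (95% interval -3.83 to -3.77). Psmb11, the beta5t subunit of the cortical thymoproteasome, was present at 58.4 CPM in knockout mTEC and 696 CPM in knockout cTEC, against 41.4 and 554 CPM in the control libraries. Each cTEC library stood more than 10-fold above the mTEC library of its genotype for both genes.

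Ctsl, the lysosomal cathepsin that processes class II peptides in the cortex, was present at 1813 CPM in knockout mTEC and 6857 CPM in knockout cTEC, against 1605 and 5414 CPM in the control libraries; 27.6% of its windows belong to an overlapping gene. The chemokines Cxcl12 and Ccl25, which draw precursors into the cortex, had log2 ratios of -3.48 (control -3.39) and -2.53 (control -2.68). Dll4, the Notch ligand that commits precursors to the T lineage, was higher in cTEC by 2.51-fold (38.5 CPM in knockout mTEC and 96.7 CPM in knockout cTEC, against 35.2 and 76.5 CPM in the control libraries). Ly75, Cd83, Kitl and Tbata had log2 ratios of -3.02, -2.95, -2.40 and -2.22. Il7, the cytokine that sustains precursors, was the exception, with 157 CPM in knockout mTEC and 229.8 CPM in knockout cTEC, against 167 and 231 CPM in the control libraries and a log2 ratio of -0.55 (95% interval -0.62 to -0.48).

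Medians of gene lists are over members with enough reads in both pairs, so that both medians cover the same genes. Counts of called list members, here and below, stand beside 19.8% mTEC-high and 8.96% cTEC-high over all genes. A member with almost no cTEC reads counts as measured only when its mTEC reads reach the minimum. Its call then follows from the filter, and the same holds with the populations exchanged. A difference of such medians can depart from the median difference gene by gene, also in sign, in short lists. All 12 cTEC markers lay below 0. Prss16, Psmb11 and Ccl25 were also higher in knockout than in control mTEC (0.49, 0.50 and 0.38 on the log2 scale), as they were in cTEC (0.33, 0.33 and 0.23), so their ratio between populations differed little between the genotypes.

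So did most mTEC markers. Aire was present at 1263 CPM in knockout mTEC and 33.7 CPM in knockout cTEC, against 1267 and 37.6 CPM in the control libraries, a log2 ratio of 5.23 (95% interval 5.11 to 5.35) in the knockout pair and 5.07 in the control pair. Fezf2, which controls a second set of tissue genes in mTEC, was present at 418 CPM in knockout mTEC and 47.3 CPM in knockout cTEC, against 389 and 59.3 CPM in the control libraries. Both mTEC libraries stood far above both cTEC libraries for these genes.

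Among the 16 gene models of the mTEC marker list that had enough reads, 13 were mTEC-high in both pairs (median log2 ratio 2.15, control 2.01). Cd80, Cd86 and Cd40, which carry costimulatory signals, had log2 ratios of 3.30, 1.66 and 2.24. Tnfrsf11a, the receptor RANK, had 3.30 (control 2.82), and Spib, a transcription factor of mature and mimetic mTEC, 3.86 (control 3.93). Ccl22, Cldn3, Cldn4 and Krt14 were mTEC-high at 2.38, 1.74, 2.05 and 1.42.

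Trp63, which encodes the epithelial stem cell factor p63 and had been listed as an mTEC marker, went the other way. It was present at 239 CPM in knockout mTEC and 553 CPM in knockout cTEC, against 274 and 546 CPM in the control libraries. Its log2 ratio reached 2-fold in the knockout pair alone (-1.21, 95% interval -1.26 to -1.16), with the control pair just short of it at -0.995. Krt5 was higher in mTEC by 1.51-fold. Ccl21a and Ccl19, the chemokines that bring selected thymocytes into the medulla, are each represented by a gene model on chromosome 4 and another on an unplaced scaffold. The chromosome 4 model of Ccl21a has 70.6% of its 50-base windows in other genes as well, and its log2 ratio was 1.07, while the scaffold model had 0.02, and Ccl19 on chromosome 4 had 10 and 1 reads in the knockout pair against 264 and 1 in the control pair. Values of these chemokine models are uncertain, since reads can be divided between copies.

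**Figure D2:**
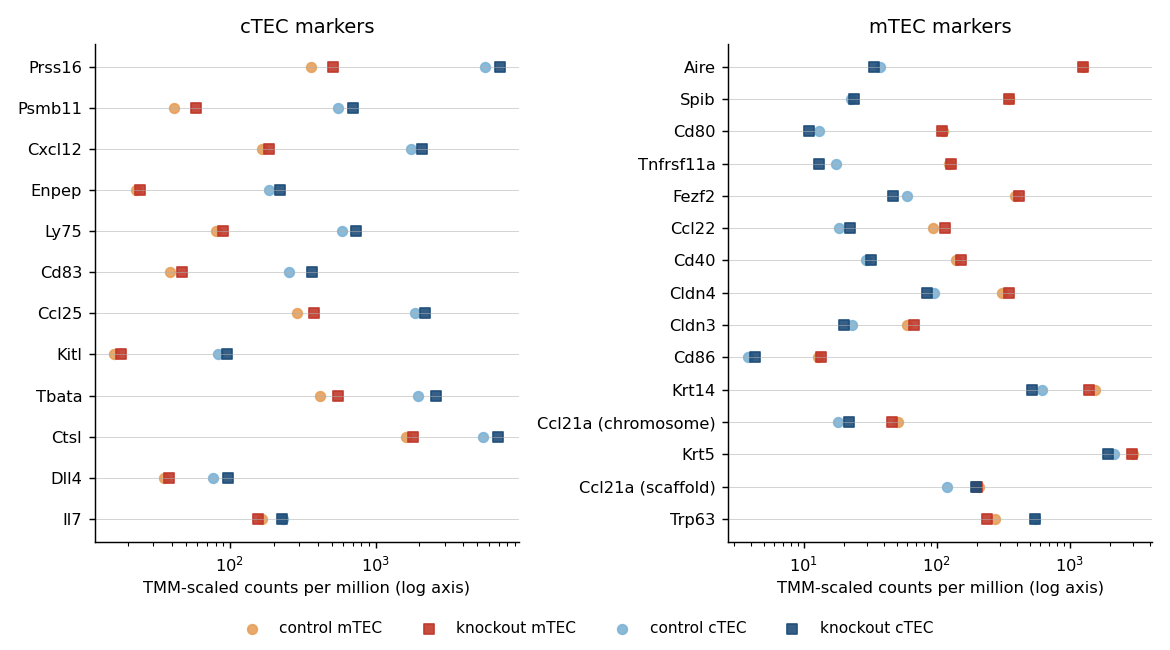
TMM-scaled CPM (log axis) of 12 cTEC markers (left) and 15 of the 16 gene models of mTEC markers (right) with enough reads, the other not being reported here, 1 point for each library; circles are control and squares are Scd1 knockout libraries, orange and red are mTEC, light and dark blue are cTEC. The red and orange points lie together and apart from the blue points for most genes, with Il7, Krt5 and the scaffold model of Ccl21a as the closest and Trp63 reversed.

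Single genes were ranked among protein-coding genes, leaving out predicted gene models. By the lower bound of the interval, those farthest apart on the medullary side were Madcam1, Gstm3, Csn1s2a, Pgc, Klk4, Dlk1, Cnn1, Prss29, Akp3 and Clca3b. Madcam1, an adhesion molecule of mucosal vessels, had 567 reads in knockout mTEC, 2 in knockout cTEC, 435 in control mTEC and 3 in control cTEC, a log2 ratio of 7.82 (95% interval 6.28 to 11.19). Csn1s2a, a milk casein, had 235 reads in knockout mTEC, 0 in knockout cTEC, 225 in control mTEC and 3 in control cTEC, which is at least 78.2-fold higher in knockout mTEC against a floor of 3 reads per library. Cnn1, smooth muscle calponin, had 168 and 0 reads in the knockout pair, at least 55.9-fold. Pgc, the stomach protease progastricsin, had 972 reads in knockout mTEC, 11 in knockout cTEC, 796 in control mTEC and 16 in control cTEC, and Clca3b 712 reads in knockout mTEC, 8 in knockout cTEC, 670 in control mTEC and 4 in control cTEC. All 10 genes were held, and all were at or below 16 reads in both cTEC libraries. Gstm3 shares 30.8% of its windows with related genes and is uncertain.

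Of 25 listed tissue-restricted antigens, 21 had enough reads and 20 were mTEC-high, with a median of 3.28 against -0.08 over all genes. In the control pair the median of the same genes was 2.09, with 15 of them mTEC-high and 1 cTEC-high, and the median difference gene by gene was 0.76. The members were chosen with earlier results of these data known. They include 4 of the gained and 1 of the opposite genes described below, so the shift is a description of chosen genes only. Csn2, the milk protein beta-casein, was present at 418 CPM in knockout mTEC and 22.4 CPM in knockout cTEC, against 412 and 23.6 CPM in the control libraries. Pyy, a gut peptide hormone, had 548 reads in knockout mTEC, 6 in knockout cTEC, 514 in control mTEC and 22 in control cTEC, Ins2, an insulin gene, 133 reads in knockout mTEC, 11 in knockout cTEC, 134 in control mTEC and 2 in control cTEC, and Gad1, which makes the transmitter GABA, 415 reads in knockout mTEC, 5 in knockout cTEC, 372 in control mTEC and 7 in control cTEC. In each of them both mTEC libraries lay above both cTEC libraries.

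Mimetic cell genes followed the same order, with the ciliated list as the exception. For these lists and the antigens, members almost silent in cTEC were measured only through their mTEC reads, so the shares called are in part set by the filter. Muscle genes were mTEC-high in 11 of 11 (median 3.54, control 3.45), all of them held: Myog, the muscle differentiation factor, had 99 reads in knockout mTEC, 2 in knockout cTEC, 109 in control mTEC and 3 in control cTEC, and Ttn, the sarcomere protein titin, 1216 reads in knockout mTEC, 104 in knockout cTEC, 1221 in control mTEC and 85 in control cTEC. Keratinocyte genes were mTEC-high in 10 of 10 (median 2.69, control 2.29), led by Krt77 at 5.34 (control 5.56) and Flg, the barrier protein filaggrin, at 3.82 (control 2.86).

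In the enterocyte and hepatocyte list, 11 of 12 measured members were mTEC-high and 0 cTEC-high (median 3.54, control 3.11). Cdx1, the intestinal homeobox factor, was present at 191 CPM in knockout mTEC and 7.93 CPM in knockout cTEC, against 186 and 9.03 CPM in the control libraries, and Fabp2, an intestinal fatty acid binding protein, had 88 reads in knockout mTEC, 2 in knockout cTEC, 71 in control mTEC and 2 in control cTEC; Hnf4g is described with the lost differences. For microfold genes 8 of 9 measured members were mTEC-high and 0 cTEC-high (median 2.97, control 3.07), with Sox8 at 4.21 (control 3.14) and Gp2, the microfold bacterial receptor, at 1.48 (control 1.44). For neuroendocrine genes 9 of 10 measured members were mTEC-high and 0 cTEC-high (median 2.48, control 2.45). Insm1, the neuroendocrine factor, was present at 191 CPM in knockout mTEC and 9.58 CPM in knockout cTEC, against 194 and 8.44 CPM in the control libraries, whereas Chga, chromogranin A, was not called (-0.42, control -0.01).

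Among ionocyte genes 6 of 7 measured members were mTEC-high and 0 cTEC-high (median 3.17, control 2.85), with Foxi1 at 3.41 (control 2.85), and the median difference gene by gene was -0.08. Tuft cell genes were less far apart: 6 of 11 measured members were mTEC-high and 0 cTEC-high (median 1.27, control 0.85). Pou2f3, the tuft cell master factor, had 330 reads in knockout mTEC, 182 in knockout cTEC, 325 in control mTEC and 162 in control cTEC and was not called (0.85), while Gfi1b had 63 reads in knockout mTEC, 2 in knockout cTEC, 74 in control mTEC and 17 in control cTEC and Gnat3, a taste G protein, 121 reads in knockout mTEC, 23 in knockout cTEC, 83 in control mTEC and 17 in control cTEC. Among ciliated cell genes none was mTEC-high and 3 were cTEC-high (median -0.58, control -0.27, and 0.2960 over members with 200 or more reads): Dynlrb2 at -1.90 (control -2.02), Trp73 at -1.11 (control -1.19) and Tekt1 at -1.04 (control -0.53). Foxj1, the ciliogenesis factor, had a log2 ratio of 0.50, and the median difference of the ciliated list gene by gene was 0.12.

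On the cortical side the 10 leading genes, ranked in the same way, were Prss23, Mfsd4b1, Scn1a, Ackr4, Snhg11, Prss16, Abat, Mtcl1, Serpinf1 and Psmb11. Prss23, a serine protease, had 10 reads in knockout mTEC, 328 in knockout cTEC, 11 in control mTEC and 245 in control cTEC, a log2 ratio of -4.97 (95% interval -6.11 to -4.14), with 26.6% of its windows in an overlapping gene. Ackr4, the scavenging receptor for CCL19, CCL21 and CCL25, was present at 20.5 CPM in knockout mTEC and 329 CPM in knockout cTEC, against 16.1 and 299 CPM in the control libraries. Scn1a, a voltage-gated sodium channel, was present at 8.31 CPM in knockout mTEC and 147 CPM in knockout cTEC, against 5.28 and 143 CPM in the control libraries, and Abat, which breaks down GABA, at 12.9 CPM in knockout mTEC and 186 CPM in knockout cTEC, against 12.4 and 178 CPM in the control libraries. All 10 were held, with control log2 ratios between -4.75 and -3.37.

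Transcription factors were grouped by family as the deposited table assigns them. Of 1015 factors measured, 162 (15.96%) were mTEC-high and 95 (9.36%) cTEC-high, against 19.8% and 8.96% of all genes. Of these factor calls 205 were held, and over all genes 3676 of 4592 knockout calls were held. The families and the factors named here were picked after their values were seen. T-box factors were mTEC-high in 7 of 11, ETS factors in 11 of 25, homeobox factors in 29 of 70 (12 were cTEC-high) and bHLH factors in 16 of 56. The 12 include the ceramide synthase genes Cers3 and Cers6, which the deposited table places in the homeobox family and so among the 95. The C2H2 zinc fingers, the largest family, were mTEC-high in 28 of 426 and cTEC-high in 47.

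Beside Aire, the factors with high medullary ratios included Tbx3, a limb and gland factor, with 233, 5, 245 and 16 reads in knockout mTEC, knockout cTEC, control mTEC and control cTEC, and Nkx2-6 with 427, 12, 331 and 26. The cortical factors were led by Klf15, a metabolic regulator, with 143, 1536, 97 and 1255 reads in the same order (log2 ratio -3.42, control -3.84), Nr2f1 (-2.84, control -2.46) and Thra, a thyroid hormone receptor (-2.53, control -2.50).

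In the list of 16 epithelial factors, 3 were mTEC-high (Aire, Fezf2 and Grhl3) and 3 cTEC-high (Pax1, Hoxa3 and Trp63). Pax1, which patterns the pharyngeal pouch, was present at 196 CPM in knockout mTEC and 843 CPM in knockout cTEC, against 170.2 and 724 CPM in the control libraries. Foxn1 was higher in cTEC by less than 2-fold, at 124 CPM in knockout mTEC and 208 CPM in knockout cTEC, against 126 and 172 CPM in the control libraries.

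Among families named by symbol, also chosen after the values were seen, kallikreins were mTEC-high in 19 of 19 measured (median 3.73), keratins in 31 of 38 (median 2.70), mucins in 8 of 11 and serpins in 19 of 34, while 76 ribosomal protein genes were called in neither direction (median 0.15). Family members almost silent in cTEC were measured only where mTEC reads reached the minimum. The shares of such families are in part set by this filter.

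Lipid genes were called in both directions, beside 19.8% mTEC-high and 8.96% cTEC-high over all genes. Most of the lipid calls were made in both genotypes. Among fatty acid oxidation and PPAR target genes 1 of 17 measured members were mTEC-high and 5 cTEC-high (median -0.48, control -0.50). Cpt1a, which admits fatty acids to mitochondria, was present at 103 CPM in knockout mTEC and 359.6 CPM in knockout cTEC, against 93.1 and 325 CPM in the control libraries. Acaa2, Ehhadh and Hadhb, enzymes of beta-oxidation, and Pdk4, which spares glucose, had log2 ratios of -1.51, -1.49, -1.31 and -1.36, and all 5 were held.

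In fatty acid synthesis, 2 of 15 measured members were mTEC-high and 2 cTEC-high (median 0.12, control 0.24). Fasn, fatty acid synthase, was present at 181 CPM in knockout mTEC and 626 CPM in knockout cTEC, against 175 and 470.3 CPM in the control libraries, and its log2 ratio differed between the pairs by -0.37 (95% interval -0.45 to -0.29), under the 2-fold rule. Srebf1, the factor that drives lipogenic genes, had -1.63 (control -1.70). Against them stood Acacb, the carboxylase whose product restrains CPT1, at 128 CPM in knockout mTEC and 4.96 CPM in knockout cTEC, against 130.3 and 6.15 CPM in the control libraries, and Thrsp, a lipogenic cofactor, at 29 CPM in knockout mTEC and 2.51 CPM in knockout cTEC, against 27.8 and 4.12 CPM in the control libraries.

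Of the genes for uptake and binding, 3 of 16 measured members were mTEC-high and 2 cTEC-high (median -0.08, control -0.25), and the knockout median was 0.0129 when libraries were scaled to total reads. Lpl, lipoprotein lipase, was present at 26 CPM in knockout mTEC and 155 CPM in knockout cTEC, against 26.3 and 122 CPM in the control libraries, Vldlr had -2.45 (control -2.36), and on the medullary side Fabp4, a fatty acid carrier, was present at 172 CPM in knockout mTEC and 18.3 CPM in knockout cTEC, against 131 and 13.2 CPM in the control libraries and Pparg, the adipogenic receptor, had 62 reads in knockout mTEC, 7 in knockout cTEC, 43 in control mTEC and 15 in control cTEC. Mgll, which releases fatty acid from monoacylglycerol, was present at 61.5 CPM in knockout mTEC and 394 CPM in knockout cTEC, against 52.5 and 406 CPM in the control libraries and was the widest cortical gene of the lipid droplet list. In that list 1 of 12 measured members were mTEC-high and 2 cTEC-high (median -0.15, control -0.15). Cholesterol synthesis had 3 mTEC-high and 3 cTEC-high of 23 genes (median -0.24, control -0.21), with Sc5d at -1.56 (control -1.48) and Stard4, a sterol carrier, at 1.79 (control 1.48).

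Sphingolipid genes had 1 mTEC-high and 4 cTEC-high of 15 (median -0.22, control -0.29). Cers3, which makes ceramides with very long chains, had 75 reads in knockout mTEC, 357 in knockout cTEC, 55 in control mTEC and 299 in control cTEC; Asah1, acid ceramidase, had -1.37 (control -0.78) and passed 2-fold in the knockout pair alone. Across the lipid lists, Fads1, a desaturase of polyunsaturated fatty acids, was the only control call that was not called in the knockout pair, at 0.78 in the knockout pair and 1.05 in the control pair.

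Genes of antigen presentation were called in some lists and not in others, beside 19.8% mTEC-high and 8.96% cTEC-high over all genes. Among class II genes 2 of 10 measured members were mTEC-high and 0 cTEC-high (median 0.44, control 0.34); the called members were H2-Ob and H2-Oa, the chains of the DM inhibitor, at 1.74 (control 1.46) and 1.08 (control 0.99), while Cd74, the invariant chain, was present at 11791 CPM in knockout mTEC and 8768 CPM in knockout cTEC, against 11355 and 9539.5 CPM in the control libraries. None of 10 class I genes was called. Of the proteasome genes, Psmb11 and the immunoproteasome subunit Psmb9 (-1.51, control -1.46) were cTEC-high and Psme1, an activator subunit, mTEC-high (1.37, control 1.09). Lysosomal proteases split by population, with 5 of 11 mTEC-high and Prss16 and Ctsl cTEC-high. Ctsh was present at 180.3 CPM in knockout mTEC and 21.7 CPM in knockout cTEC, against 175 and 27.3 CPM in the control libraries, and Ctsz and Ctss, the medullary cathepsin S, had 2.37 (control 2.34) and 2.10 (control 2.53). In the RANK, CD40 and NF-kB list 5 of 12 measured members were mTEC-high and 0 cTEC-high (median 0.81, control 0.89). Its widest member was Tnfrsf11b, the RANK ligand decoy osteoprotegerin, at 89.2 CPM in knockout mTEC and 5.88 CPM in knockout cTEC, against 91.6 and 7 CPM in the control libraries; Nfkb2 and Relb, the partners of the alternative pathway, had 1.33 (control 1.32) and 1.11 (control 1.07).

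Signals to thymocytes were divided between the compartments. For chemokines 7 of 14 measured members were mTEC-high and 2 cTEC-high (median 0.66, control 1.02), with Ccl20 at 3.25 (control 3.07), Cxcl9 at 2.71 (control 2.21) and Xcl1 at 4.50 (95% interval 2.88 to 7.88) on the medullary side; Xcl1 rests on 56 and 2 reads. The median difference between the pairs, gene by gene, was 0.10, opposite in sign to the difference of the medians. Of the cytokines 2 of 12 measured members were mTEC-high and 4 cTEC-high (median -0.55, control -0.46). Fgf21 was present at 181 CPM in knockout mTEC and 8.1 CPM in knockout cTEC, against 206 and 7.39 CPM in the control libraries, while Kitl, Il33 and Bmp4 were higher in cTEC at -2.40 (control -2.37), -2.32 (control -2.74) and -2.02 (control -1.01). The Notch ligands Jag2, Dll1 and Dll4 were cTEC-high (-1.94, -1.34 and -1.33) and held, and Jag1 was not called (-0.04). The receptor Notch3, the target Heyl and Lfng, which modifies Notch receptors, were mTEC-high at 1.06 (control 0.94), 1.02 (control 0.77) and 1.02 (control 1.07), and Notch3 and Heyl were not called in the control pair. Costimulatory and checkpoint ligands were mTEC-high in 7 of 10, with Cd70 at 3.77 (control 3.14) and Icosl at 3.64 (control 3.52), and Cd274, the checkpoint ligand PD-L1, was cTEC-high at 308 CPM in knockout mTEC and 787 CPM in knockout cTEC, against 301 and 765 CPM in the control libraries. In the growth factor list 4 of 16 measured members were mTEC-high and 3 cTEC-high (median -0.56, control -0.46): Bmp2 had 3.61 (control 3.98), Wnt10a 1.70 (control 1.41), Tgfbr2 -1.96 (control -1.90) and Wnt4 -1.56 (control -1.64).

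Of 11 listed keratins 5 were mTEC-high, among them Krt20 at 4.61 (control 4.57), and Krt18 was cTEC-high at -1.05 (control -1.08); Krt19 was called in the control pair alone (-0.47 against -1.15). For junction genes 8 of 18 measured members were mTEC-high and 1 cTEC-high (median 0.29, control 0.08), led by Tjp3 at 2.41 (control 2.40) and Cldn7 at 2.24 (control 2.19), with Cldn8 on the cortical side (-1.16, control -0.92). For matrix genes 1 of 13 measured members were mTEC-high and 3 cTEC-high (median -0.23, control -0.19): Col4a5 had -2.12 (control -1.95) and Nid1 1.77 (control 1.75).

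Proliferation genes were mTEC-high in 11 of 20 (median 1.07, control 1.33) and cTEC-high in none. Cdk1 was present at 31.2 CPM in knockout mTEC and 4.91 CPM in knockout cTEC, against 35.5 and 5.17 CPM in the control libraries, and Mki67 and Top2a had 1.40 (control 1.54) and 1.75 (control 1.90); the 11 were held, and Mcm3, Mcm5 and Birc5 were called in the control pair alone. None of 20 nuclear genes of oxidative phosphorylation was called, and of 13 genes of the mitochondrial genome 1 was, mt-Nd3 (1.07, control 0.85), which shares 83.3% of its windows with other genes. The median of the mitochondrial genome list was 0.52 (control 0.74).

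Interferon response genes had 2 cTEC-high members of 18, Ifit1 at -1.44 (control -1.65) and Ifit3 at -1.30 (control -1.54), the latter with 50% shared windows. Among antioxidant genes 2 of 15 measured members were mTEC-high and 3 cTEC-high (median -0.29, control -0.20), led by Nqo1, the quinone reductase, at 30.2 CPM in knockout mTEC and 174 CPM in knockout cTEC, against 22.8 and 162 CPM in the control libraries, and by Slc7a11, the cystine importer, at 1.58 (control 1.57) on the medullary side. Immediate early genes, which respond to tissue dissociation, summed to 21169 CPM in knockout mTEC, 29902 in knockout cTEC, 21172 in control mTEC and 32163 in control cTEC; 1 of 12 was mTEC-high (Egr3, 2.37, control 2.12) and 1 cTEC-high (Ier3, -1.47, control -1.47), and their part in the results was not tested.

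**Figure D3:**
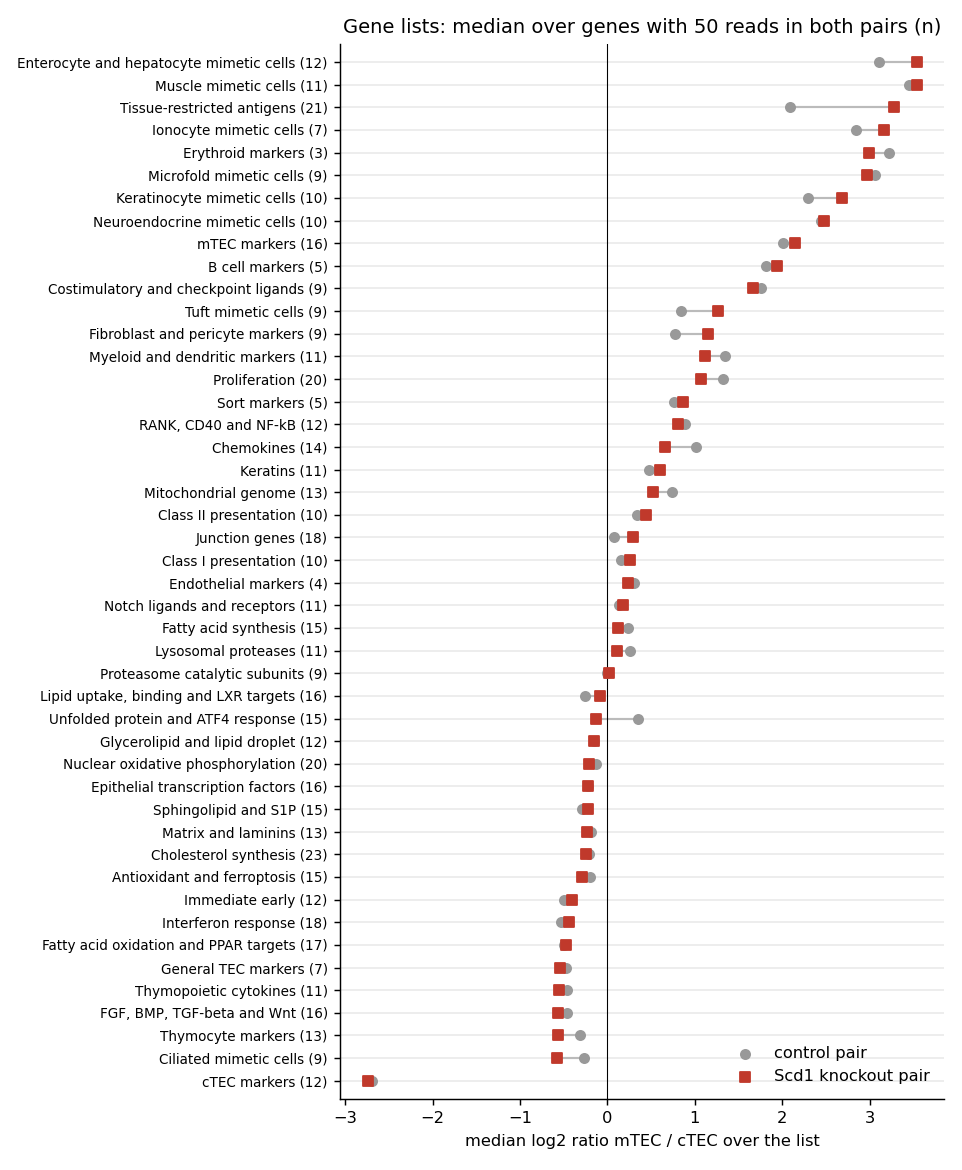
Median log2 ratio of mTEC over cTEC for each gene list, over its members with 50 or more reads in both pairs (number in brackets); grey circles are the control pair, red squares the Scd1 knockout pair, and the joining line is the difference between them. cTEC markers lie lowest at -2.74 and the muscle and the enterocyte and hepatocyte lists highest at 3.54, and the longest line belongs to tissue-restricted antigens, at 2.09 in the control and 3.28 in the knockout pair. List members were chosen with earlier results of these data known.

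Markers of other cell types were present in all 4 libraries. Thymocyte markers summed to 415 CPM in knockout mTEC, 563 in knockout cTEC, 358 in control mTEC and 426 in control cTEC; 13 of 15 had enough reads, 1 was cTEC-high (Cd3e, -1.12, control -1.19), and their median was -0.57. Myeloid and dendritic markers summed to 406 CPM in knockout mTEC, 161 in knockout cTEC, 361 in control mTEC and 130.4 in control cTEC, with 7 of 12 mTEC-high, led by Lyz2 (2.41, control 2.46). B cell markers summed to 105 CPM in knockout mTEC, 89.5 in knockout cTEC, 113 in control mTEC and 80.7 in control cTEC, with 4 of 5 mTEC-high, led by Pax5 (4.08). Of 9 fibroblast and pericyte markers 5 were mTEC-high and 2 cTEC-high, with Pdgfrb at 3.63 (control 3.53) and Dcn at -2.08 (control -2.06), and summed to 531 CPM in knockout mTEC, 433 in knockout cTEC, 521 in control mTEC and 445 in control cTEC. The 3 erythroid markers with enough reads were mTEC-high. The other 3 erythroid markers had no read in either cTEC library, while no marker of the other lists was at 0 in any library. The part of these cells in the compartment differences was not tested.

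Lost differences were few. A control call was lost when absent in the knockout pair and when the ratios differed by 2-fold or more, with an interval that excluded 0. By this rule 43 mTEC-high (0.277% of the 15509 genes) and 39 cTEC-high differences (0.251%) were lost. They were shallow genes: the median lost gene had 97.5 reads over the knockout pair, against 278 for held genes, and 7 of the 82 had 200 or more reads in both pairs. With every library thinned to the smallest total, 56 of the 82 were lost again. Of the 82, 59 were protein coding, and the leading lost genes below were taken from these, without predicted gene models.

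Trib3, a pseudokinase of the stress response driven by ATF4, led the lost mTEC-high genes. It was present at 9.33 CPM in knockout mTEC and 11.1 CPM in knockout cTEC, against 8.16 and 2.94 CPM in the control libraries, so that control cTEC alone was low and its ratio differed by -1.71 (95% interval -2.28 to -1.14). Atf5, a stress response transcription factor, was present at 122 CPM in knockout mTEC and 98.3 CPM in knockout cTEC, against 131 and 50.9 CPM in the control libraries, with log2 ratios of 0.31 (95% interval 0.21 to 0.40) in the knockout pair and 1.37 in the control pair. Aldh1l2, a mitochondrial folate enzyme, had 60 reads in knockout mTEC, 79 in knockout cTEC, 58 in control mTEC and 21 in control cTEC.

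Of the 15 stress response gene models measured from the list of the unfolded protein and ATF4 response, 2 were mTEC-high and held (Herpud1 at 1.15 (control 1.09) and Chac1 at 1.42 (control 1.66)), 1 was lost (Trib3), 1 was cTEC-high in the knockout pair alone (Asns, asparagine synthetase, -1.09, control -0.38), and the rest were not called, Atf4 among them (-0.17). The median of the list was -0.12 in the knockout and 0.35 in the control pair, but the median difference gene by gene was -0.0073. The list joins unfolded protein and ATF4 genes, so its median does not describe either group alone. Asns and Chac1 shifted toward cTEC as Trib3 did, and Herpud1 did not. The lost genes Atf5 and Aldh1l2 lie outside the list, and a shared response was not tested.

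The other leading lost mTEC-high genes were Tox3, with 104 reads in knockout mTEC, 132 in knockout cTEC, 124 in control mTEC and 49 in control cTEC, Il18, an interleukin, with 21 reads in knockout mTEC, 32 in knockout cTEC, 41 in control mTEC and 14 in control cTEC, Pde8b, a phosphodiesterase, and Ppp1r3f, a phosphatase subunit. Sdhaf1, an assembly factor of succinate dehydrogenase, was higher in mTEC by less than 2-fold, at 0.93 (95% interval 0.57 to 1.31), and shares 69.4% of its windows with an overlapping gene, as Ppp1r3f does for 54.7%. In the lists, Tbx1, the pharyngeal T-box factor, was lost with 77 reads in knockout mTEC, 72 in knockout cTEC, 106 in control mTEC and 40 in control cTEC, Hnf4g, an intestinal nuclear receptor, with 93 reads in knockout mTEC, 59 in knockout cTEC, 101 in control mTEC and 27 in control cTEC, and Stap1 with 76 reads in knockout mTEC, 65 in knockout cTEC, 91 in control mTEC and 31 in control cTEC.

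Among lost cTEC-high genes, Ndufa12, a complex I subunit, was present at 43.1 CPM in knockout mTEC and 24.7 CPM in knockout cTEC, against 19.1 and 45.2 CPM in the control libraries, a difference of ratios of 2.04 (95% interval 1.79 to 2.30). It shares 14.8% of its windows with 1 copy, and the sum of the gene and its copy was 991 and 910 reads in the knockout pair and 697 and 876 in the control pair, log2 ratios of 0.12 and -0.49. Cldn5, the endothelial claudin, had 53 reads in knockout mTEC, 65 in knockout cTEC, 10 in control mTEC and 49 in control cTEC: control mTEC alone was low. Endothelial markers summed to 36.7 CPM in knockout mTEC, 33.6 in knockout cTEC, 26 in control mTEC and 22.4 in control cTEC, the median ratio of the 6 measured was 0.19 in the knockout pair and -0.2369 with no minimum of reads, and their part was not tested. Zbtb3, Cox20, Ccdc81, Palm3, Fbxo16 and Rtbdn completed the leading lost cTEC-high genes. Palm3 had 58 reads in knockout mTEC, 83 in knockout cTEC, 36 in control mTEC and 116 in control cTEC. Zbtb3, Rtbdn and Fbxo16 each had 65 or fewer reads over the knockout pair, and 84.6% of the windows of Cox20, an assembly factor of cytochrome oxidase, lie in an overlapping gene.

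Gained differences numbered 76 mTEC-high (0.49% of genes) and 31 cTEC-high (0.2%). Of the 107, 15 had 200 or more reads in both pairs. The leading gained genes below were taken from the 83 that were protein coding, without predicted gene models. Among the tissue-restricted antigens 4 were gained, and 3 of these, Alb, Ahsg and Ttr, encode proteins that the liver secretes. Alb, serum albumin, was present at 21.7 CPM in knockout mTEC and 4.56 CPM in knockout cTEC, against 37.1 and 34.4 CPM in the control libraries. Knockout cTEC was the lowest library. Knockout mTEC also lay below control mTEC for Alb and Ahsg, with log2 ratios of knockout over control of -0.78 and -1.12. Ahsg, fetuin-A, had 56 reads in knockout mTEC, 2 in knockout cTEC, 119 in control mTEC and 83 in control cTEC, a log2 ratio of 4.50 (95% interval 2.88 to 7.88) in the knockout and 0.36 in the control pair. Ttr, transthyretin, had 81 reads in knockout mTEC, 13 in knockout cTEC, 85 in control mTEC and 40 in control cTEC. Serpina1b, an antitrypsin, had 77 reads in knockout mTEC, 4 in knockout cTEC, 93 in control mTEC and 76 in control cTEC and shares 28.6% of its windows with 3 copies; with the copies added, the reads were 151 and 21 in the knockout pair and 214 and 171 in the control pair.

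Apoa1, the main protein of HDL, was mTEC-high in both pairs and wider in the knockout, with 734 reads in knockout mTEC, 75 in knockout cTEC, 640 in control mTEC and 149 in control cTEC and a difference of ratios of 1.34 (95% interval 0.91 to 1.76). In these 5 genes, chosen after their values were seen, both mTEC libraries and control cTEC had more reads than knockout cTEC. Crp, another liver protein, did not share this order, with 499 reads in knockout mTEC, 27 in knockout cTEC, 532 in control mTEC and 21 in control cTEC.

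Scgb3a2, a secretoglobin of the airway, had 49 reads in knockout mTEC, 9 in knockout cTEC, 50 in control mTEC and 44 in control cTEC, and Il17c, an epithelial cytokine, 79 reads in knockout mTEC, 5 in knockout cTEC, 56 in control mTEC and 25 in control cTEC. Gpat2, an acyltransferase family member, had 131 reads in knockout mTEC, 20 in knockout cTEC, 68 in control mTEC and 39 in control cTEC. Ltc4s, which makes leukotriene C4 in tuft cells, had 67 reads in knockout mTEC, 18 in knockout cTEC, 53 in control mTEC and 32 in control cTEC, and Tek, the endothelial receptor TIE2, 87 reads in knockout mTEC, 15 in knockout cTEC, 50 in control mTEC and 29 in control cTEC. Sumo2 was present at 98.6 CPM in knockout mTEC and 24.8 CPM in knockout cTEC, against 29.2 and 43.8 CPM in the control libraries, with 23.8% of windows shared with 6 copies; summed with them its log2 ratios were 0.79 and 0.01. Ccl21c lies on an unplaced scaffold where copies were not measured, and had 581 reads in knockout mTEC, 77 in knockout cTEC, 442 in control mTEC and 354 in control cTEC.

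Among gained cTEC-high genes, Gapdh, the glycolytic enzyme, was present at 46 CPM in knockout mTEC and 168 CPM in knockout cTEC, against 49.1 and 50.9 CPM in the control libraries, so that knockout cTEC alone was high. It shares 26.2% of its windows with 81 copies, and the sum of all of them had log2 ratios of -1.34 in the knockout pair and -0.15 in the control pair. Fam20a, a secretory pathway pseudokinase, was present at 4.89 CPM in knockout mTEC and 21.1 CPM in knockout cTEC, against 10 and 19.2 CPM in the control libraries, and knockout mTEC was the low library. Mtfp1, a mitochondrial fission protein, had 15 reads in knockout mTEC, 61 in knockout cTEC, 30 in control mTEC and 29 in control cTEC, and Galr2, a galanin receptor, 39 reads in knockout mTEC, 113 in knockout cTEC, 52 in control mTEC and 67 in control cTEC. Csdc2, Zfp873, Tmem40 and Ano4 had log2 ratios of -1.54 (control -0.33), -1.22 (control -0.03), -1.34 (control -0.27) and -1.85 (control -0.31).

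**Figure D4:**
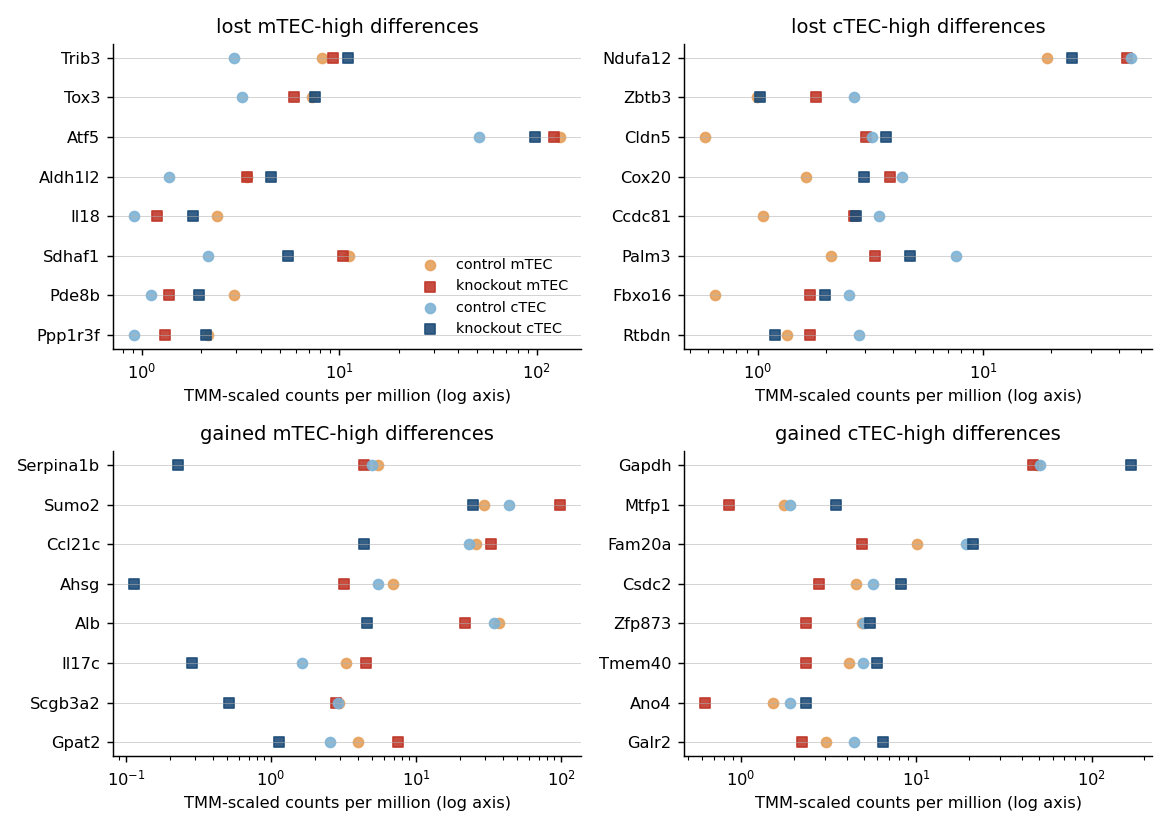
TMM-scaled CPM (log axis) in the 4 libraries for the leading lost and gained differences in each direction, 1 point for each library; circles are control and squares are Scd1 knockout libraries, orange and red are mTEC, light and dark blue are cTEC. For Trib3 and Atf5 the control cTEC point stands apart at low values, for Ahsg, Alb and Il17c the knockout cTEC point is the lowest, and for Gapdh the knockout cTEC point is the high one.

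The populations were then taken one at a time, knockout against control. Of the 43 lost mTEC-high genes, 35 differed more between the cTEC libraries than between the mTEC libraries, and in all 43 knockout cTEC lay above control cTEC (median log2 0.92, against -0.36 in mTEC). Of the 76 gained mTEC-high genes, 63 differed more in cTEC, where the knockout lay below the control in every one (median -1.05, against 0.36 in mTEC). Over all 15509 genes 59.0% differed more in cTEC. The direction in cTEC follows in part from the rule that chose these genes, and with 1 library a group the library and the genotype cannot be told apart. A gene called mTEC-high has fewer scaled reads in cTEC in the pair that called it, where counting error is larger. The part of this in the counts of genes that differed more in cTEC was not tested. The 59.0% over all genes is not matched for depth. The 39 lost cTEC-high genes differed more in cTEC in 19 cases, and the 31 gained cTEC-high genes in 11.

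**Figure D5:**
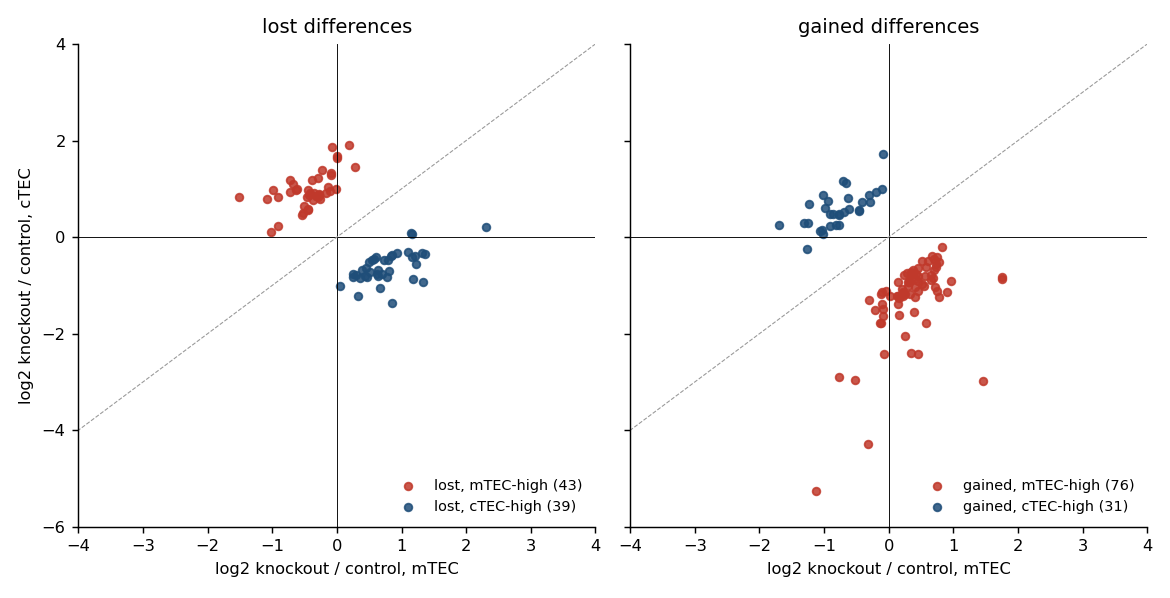
For each lost (left) and gained (right) difference, log2 of knockout over control in mTEC (horizontal axis) and in cTEC (vertical axis); red points are mTEC-high and blue points cTEC-high differences, and the dashed line marks equal differences. Gained mTEC-high points reach farther along the cTEC axis, to Ahsg at -5.26, than along the mTEC axis.

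Calls in opposite directions were made for 8 genes (0.0516%). Otog, otogelin of the inner ear, was present at 9.33 CPM in knockout mTEC and 2.34 CPM in knockout cTEC, against 8.27 and 18.9 CPM in the control libraries: it was mTEC-high in the knockout pair and cTEC-high in the control pair, and against the mTEC libraries control cTEC was high and knockout cTEC was low. Dbndd1 had 13 reads in knockout mTEC, 37 in knockout cTEC, 40 in control mTEC and 13 in control cTEC, cTEC-high in the knockout and mTEC-high in the control pair. Ighg2c, an antibody constant region, had 78 reads in knockout mTEC, 34 in knockout cTEC, 75 in control mTEC and 229 in control cTEC, beside the B cell marker sums given above. The other 5, Srp54b, Eif3j2, Ccl19-ps3, Gm10705 and Gm2004, share between 77.8% and 100% of their windows with other genes and are uncertain. Srp54b had 177 reads in knockout mTEC, 29 in knockout cTEC, 31 in control mTEC and 141 in control cTEC, but together with its 2 copies 518 and 399 reads in the knockout pair and 372 and 474 in the control pair, log2 ratios of 0.37 and -0.51. Genes with near-identical copies, defined as 25% or more of windows of 50 bases found in a gene elsewhere, made up 5.90% of genes in both pairs, 3.40% of held, 19.5% of lost (16 genes) and 11.3% of gained differences (12 genes).

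Just inside the minimum of 50 reads, reached exactly by 62 genes, Acss3 had 21 and 29 reads and Alyref2 19 and 31 reads in knockout mTEC and cTEC. Just outside it, among 55 genes with 49 reads, Astl had 49 and 0 reads and Bbs10 16 and 33. A further 22668 identifiers had no read in either knockout library.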

How the data were processed

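RNA was measured by bulk sequencing of NEBNext Ultra libraries from 4 sorted populations, 1 library per group. The values are unnormalized counts of reads for each gene, as the authors deposited them. The submitters' processing notes name mm10 as the build and list featureCounts 1.5.0-p3, HISAT2 2.0.5 and CASAVA as tools. Strand setting, annotation release and the handling of reads with several matches were not found in these sources, so overlapping, antisense and duplicated genes are uncertain. All per-sample columns were used.

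Counts were scaled by TMM (edgeR 4.0.16, R 4.3.3). Log2 ratios of mTEC over cTEC used a prior of 0.5 reads and exact conditional binomial (Clopper-Pearson) 95% intervals, and were called at 50 or more reads over the pair, 2-fold and an interval excluding 0. A difference between the pairs (knockout minus control) has a normal 95% counting interval. A control call was held when called in the same direction in the knockout pair, and lost when not called there and the difference was 2-fold or more with an interval excluding 0; gained is the reverse. Floors are 3 reads per library. A gene has near-identical copies when 25% or more of its 50-base transcript windows (GENCODE M21) are found in genes elsewhere. The copies counted and summed for a named gene are genes elsewhere that share more than a single window with it, also where its share is below 25%. Scripts (Python 3.11.15, numpy 2.4.6, pandas 2.3.3, scipy 1.17.1, matplotlib 3.10.9) were tested on simulated data.

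Genes were named as the targeted family, the markers, the 10 farthest from 0 on each side by interval bound, up to 4 of each list by size, up to 8 lost and gained in each direction, up to 5 opposite, and 2 on each side of the minimum. The farthest, lost, gained, opposite and minimum genes of this rule were taken from protein-coding genes, without predicted gene models. Other genes were named after their values were seen, and some genes the rule names are not reported here. The members and the 47 lists were chosen with earlier results of these data known. Alternatives were DESeq2 1.42.0 size factors, total reads, other minimums, priors and folds, and leaving out copies; thinning was chosen after seeing the data.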

Additional observations from a re-analysis of the deposited data

Results flagged for a closer look

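The compartment difference went in opposite directions in the control and knockout pairs, with both calls beyond counting error, for Srp54b, Otog, Dbndd1 and Eif3j2. The log2 ratio of mTEC over cTEC in the knockout pair minus that in the control pair was 4.91 for Srp54b, 3.17 for Otog, -2.91 for Dbndd1 and 2.24 for Eif3j2. The comparison is of counting error in 1 library per group and has no replicate check. Srp54b and Eif3j2 have near-identical copies. Otog and Dbndd1 share no window with other genes.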

How the results depend on the processing

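No paired analysis was possible because each group holds 1 library and the labels give no replicate numbers, and for the same reason no library could be left out. With a minimum of 200 reads, 1508 genes were mTEC-high in the knockout pair, 1276 control mTEC-high differences were held, 7 were lost and 15 gained in both directions together. With no minimum these counts were 6131, 4631, 310 and 395. With a 4-fold threshold 1926 genes were mTEC-high and 278 cTEC-high, 1525 and 212 differences were held, 11 were lost and 23 gained, of which 2 lost and 12 gained genes were also among the 82 and 107. The 200-read minimum tests fewer genes by construction. List medians changed sign for lipid uptake with total reads (0.0129), for lysosomal proteases (-0.0523), ciliated cells (0.2960) and B cell markers (-0.0877) at 200 reads, and for endothelial markers with no minimum (-0.2369); the cause was not tested. DESeq2 size factors, total reads, a prior of 2 reads, leaving out copies and thinning kept all 6 counts within 1.5 times. The share of knockout calls that were mTEC-high was 68.9%, and 73.4% with total reads. Thinning gave 67 lost differences, 56 of them shared with the 82, and 110 gained, 93 of them shared with the 107. Depth limits the lost and gained calls, since few of these genes had 200 reads in both pairs.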
